A study of Mus musculus with 8 samples.

Results

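The transporters that carry sugars, peptides, amino acids, vitamins, nucleosides and mineral ions across the absorptive cells of the gut were examined as a group of 40 genes, among 55487 genes in the table. The members were chosen by symbol, as carriers of these substrates, with earlier results of these data known: 38 solute carrier (Slc) genes, and Cubn and Amn, the 2 subunits of the ileal vitamin B12 receptor. All 40 symbols were found, each in 1 row. RNA from the ileum of 4 irinotecan-treated Gsdme-/- mice (called Gsdme_KO) and 4 irinotecan-treated Gsdme+/+ mice (called WT) was sequenced in bulk. Every mouse, the WT mice included, had received irinotecan, a topoisomerase I inhibitor that injures the gut, and no untreated mice were analysed here. The sources used here give neither strain, age, sex, dose and interval after dosing nor the way the Gsdme allele was made.

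Enterocytes, the absorptive cells of the intestinal villus, take up nutrients across an apical brush border and release them to the blood across a basolateral membrane. Many apical carriers draw on the sodium gradient that the sodium pump maintains, and others on a proton gradient. Several carriers are assembled from a light, transporting subunit and a heavy subunit that brings it to the membrane. Many of these genes are switched on as cells leave the crypt and climb the villus, and sugar carriers are known to be more abundant in the proximal than in the distal small intestine, whereas the B12 receptor is known for its role in the ileum.

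The libraries are called by their column headers, KO4, KO5, KO7 and KO8 for Gsdme_KO and WT3, WT5, WT7 and WT8 for WT. They held 15617407 to 23437343 reads in genes. Values are normalized counts, that is reads divided by 1 size factor per library, unless stated otherwise. Gsdme, the targeted gene, averaged 349 ± 242 normalized counts in Gsdme_KO and 2851 ± 536 in WT (SD, n = 4 each), and every Gsdme_KO library lay below every WT library (exact permutation p = 0.0286, two-sided, the smallest p that 4 against 4 libraries allow). The ileal markers Fabp6, a bile acid binding protein, and Slc10a2, the bile acid uptake carrier, were abundant in all 8 libraries (Fabp6 14739 to 72985, Slc10a2 7983 to 25319). KO4 and KO5 differed from the remaining 6 libraries in some marker lists. The 14 B cell and follicle genes found, of 15 listed and with none at 0 in all libraries, summed to 13465 and 7912 in KO4 and KO5, 658 and 594 in KO7 and KO8, against 509 to 737 in WT. T cell markers (9 of 9) summed to 3054, 1897, 1145 and 1215 in Gsdme_KO, against 646 to 1206 in WT. Macrophage and neutrophil markers (8 of 8) summed to 11341, 8603, 4928 and 5822 in Gsdme_KO, against 5447 to 7820 in WT. Crypt and cycling genes summed to 6637 to 7257 in Gsdme_KO, against 5459 to 9461 in WT. In that sum KO4 and KO5 did not stand apart, but single genes were less even. Lgr5, Olfm4, Ascl2 and Axin2 were lowest in KO4, at 45.8%, 27.8%, 47.7% and 46.1% of the WT mean. In KO5 they were at 96.5%, 94.5%, 91.9% and 70.7%. Smoc2, Mki67, Top2a, Ccnb1 and Mcm5 lay between 93.9% and 116% of the WT mean in KO4. Goblet cell genes were lowest in KO4 (185606) but within the WT sums in KO5 (298071 against 264648 to 377487). Enteroendocrine genes were below the WT sums (5958 to 8503) in KO4 (4892), KO7 (5395) and KO8 (5372), and within them in KO5 (6259). Paneth cell genes were within the WT sums in KO4 (207929 against 165999 to 339876) and highest in KO5 (439331). The summed level of 22 mature enterocyte genes that are not transporters was 261422 and 351366 in KO4 and KO5, 790861 and 596573 in KO7 and KO8, and between 484899 and 796464 in WT. By contrast, the sum of 10 pan-epithelial genes (Epcam, Cdh1, keratins and others) was 289027 to 323988 in Gsdme_KO and 283566 to 341055 in WT. Single genes of that list were less even in KO4 and KO5. Epcam (74.5% and 78.3% of the WT mean) and Vil1 (69.6% and 69.4%) had their lowest 2 values there. Krt18 (152% and 163%) and Elf3 (133% and 139%) had their highest 2 there, and the rest of the list did neither. In bulk RNA, fewer cells of a type and less RNA per cell cannot be told apart, and the part of these marker differences in the transporter values was not tested.

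No transporter gene separated the genotypes. Of the 39 members that reached the mean of 10 normalized counts needed for testing, 0 were called by limma at an adjusted p under 0.05, with adjusted p from 0.849 to 0.997. The targeted gene itself, Gsdme, was not called in this fit (log2 fold change -3.32, SE 0.49, limma adjusted p = 0.786), and was called without KO4 and KO5 (limma adjusted p = 0.0275), so that 0 calls do not show that the transporters are alike in the genotypes. Across all 16352 genes tested, 0.00612% were called higher and 0.0% lower. The remaining member, Slc23a1, was too low to test. By edgeR, run on recovered reads, 0 members were called (0.00612% of all genes higher, 0.0% lower), and by DESeq2 likewise 0 (0.0532% higher, 0.00666% lower). At an unadjusted p under 0.05, limma listed 0 members higher and 3 lower, Slc22a5, Slc3a1 and Slc36a1, against 2.61% of all genes higher and 1.77% lower. The edgeR test listed 0 higher and 1 lower at that level (4.43% and 1.58% of all genes), and DESeq2 0 higher and 3 lower (5.12% and 1.82%). The limma count of 3 depended on single libraries, being 0 without KO4, KO5, WT3 or WT7, 1 without WT5, 5 without KO8 and 17 without KO7. In 0 of the 40 members did the libraries of the genotypes fail to overlap, against 2.5% of all tested genes.

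The direction of the fitted differences was nevertheless uneven. The log2 fold change, Gsdme_KO minus WT on the log2(normalized count + 1) scale, was negative for 34 and positive for 5 of the 39 tested members, against 49.4% negative over all genes. Its median was -0.43 over the members and 0.00 over all genes tested. The members' median was -0.23 without KO4, -0.72 without KO7, -0.64 without WT8 and -0.31 by both edgeR and DESeq2. In 11 members it was under -1, as in 0.905% of all genes. This value is a difference of mean logs, in which very low libraries weigh heavily. By the ratio of the group means, 0 of the 40 members were under 50% of WT, the lowest being Slc5a12 at 58.7%. KO4 and KO5 held the lowest 2 values of the 8 libraries in 24 of the 39 members, and in 13.5% of all tested genes. KO4 was the lowest library in 28 of the 40 members, and KO4 was below KO5 in 32. KO8, on the other hand, lay within the range of the WT libraries in 34 members. KO7 lay within that range in 21 members and above it in 17. Both KO7 and KO8 were within the WT range in 18 of the 39 tested members, against 50.5% of all tested genes.

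**Figure D1:**
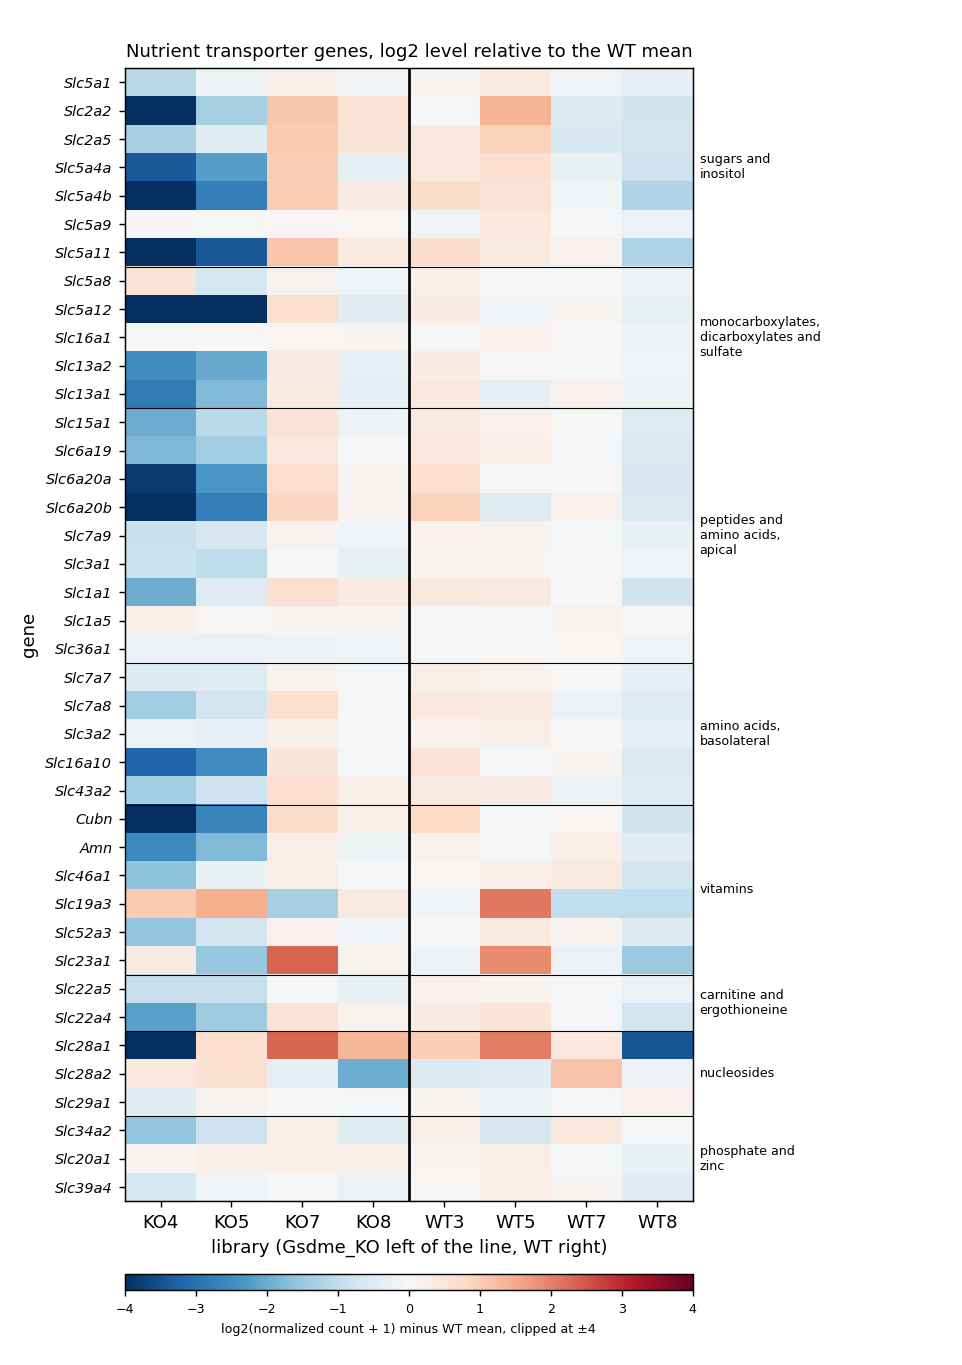
Level of each of the 40 transporter genes (rows, by substrate class) in each library (columns, Gsdme_KO left of the line and WT right), as log2(normalized count + 1) minus the WT mean of that gene, clipped at 4 either way. KO4 and KO5 are low in most rows, with 24 members having their 2 lowest values there, whereas KO8 lies within the WT range in 34 members and KO7 lies within it in 21 and above it in 17.

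Without KO4 and KO5, an alternative chosen with these values known, the negative members numbered 11 and the positive ones 28 (48.0% of all genes were negative), the median over the members was 0.12, and 25 members changed sign. That fit called 0 members by limma (0.0% of all genes higher, 0.00617% lower) and listed 0 at an unadjusted p under 0.05, against 1.03% of all genes higher and 1.71% lower. A log2 fold change under -1 then occurred in 1 member, Slc28a2, and in 0.654% of all genes. Scaling each member to the summed pan-epithelial genes of its library again gave 24 members with their 2 lowest values in KO4 and KO5, 23 of them shared with the unscaled set. Slc5a1 entered that set and Slc36a1 left it. The pan-epithelial genes used for scaling were even in sum but not one by one.

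**Figure D2:**
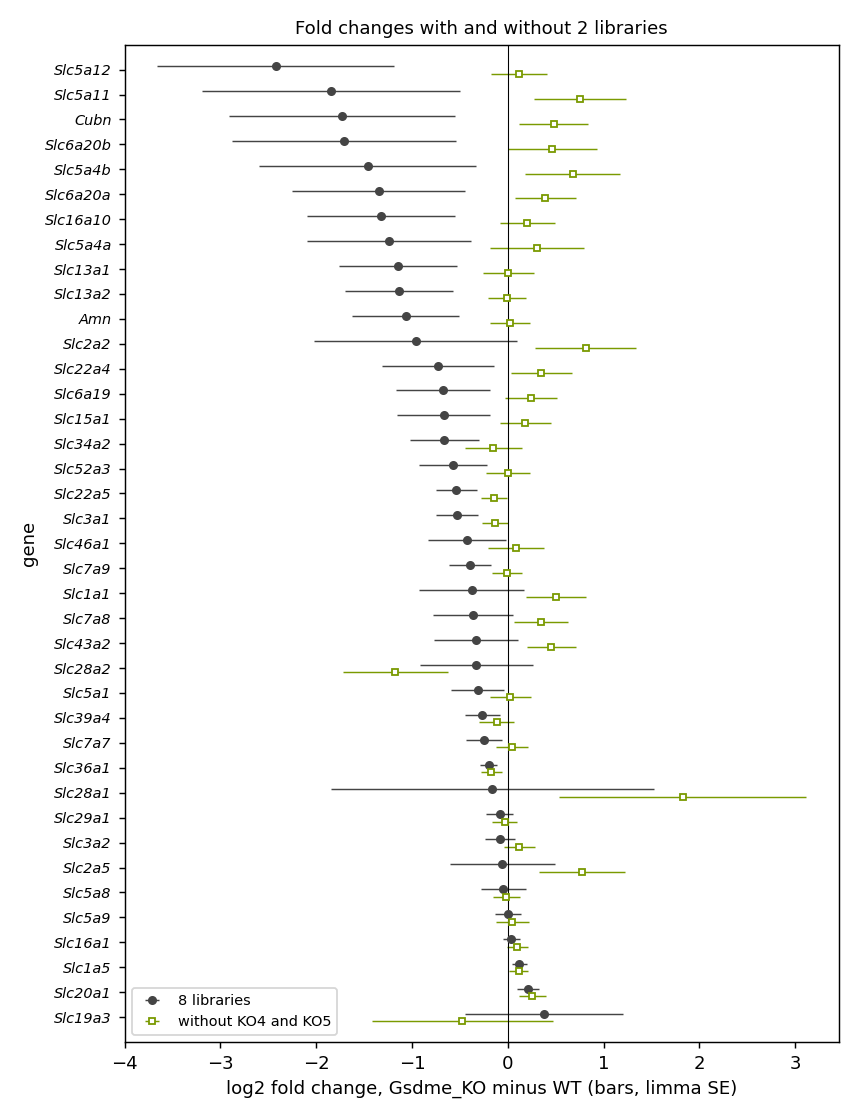
Log2 fold change, Gsdme_KO minus WT, of the 39 tested transporter genes from all 8 libraries (filled circles) and without KO4 and KO5 (open squares), with bars for the limma SE. Values from 8 libraries run from -2.42 for Slc5a12 to 0.38 for Slc19a3, and 25 members lie on the other side of 0 in the smaller fit.

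The members differed widely in how much they varied. In 11 of the 39 tested members the highest library was over 10 times the lowest or a library held 0 counts, against 4.19% of all tested genes. In 5 members, Slc1a5, Slc36a1, Slc16a1, Slc20a1 and Slc3a2, the highest library was under 1.5 times the lowest, against 36.5% of all tested genes. Levels also spanned a wide range between genes. Per kilobase of exon, Slc5a1 was the most abundant member with a mean of 4356 normalized counts over the 8 libraries, followed by Slc3a1 (3638), Slc6a19 (2916) and Slc7a9 (2179), while Slc20a1, Slc36a1 and Slc16a1 had 139, 96.2 and 540. The lowest were Slc19a3 (4.08), Slc6a20b (3.39) and Slc23a1 (2.34).

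The promoters of the members of widest and of narrowest range are shown to set the letters of the genes beside their spread. The 3 of widest range among members with a mean of at least 500 and a single RefSeq promoter were Cubn (63.9-fold between the highest and the lowest library), Slc2a2 (46.9-fold) and Slc6a20a (23.0-fold). The 3 of narrowest range were Slc36a1 (1.25-fold), Slc16a1 (1.28-fold) and Slc3a2 (1.47-fold). Each run is the 250 bases before the RefSeq start site, 5′ to 3′ on the gene's strand, in build GRCm38.p6, and capitals mark the GTTAAT (HNF1 half-site) matches. The windows are Cubn chr2:13491877-13492126 (minus strand), Slc2a2 chr3:28697653-28697902 (plus strand), Slc6a20a chr9:123678833-123679082 (minus strand), Slc36a1 chr11:55204090-55204339 (plus strand), Slc16a1 chr3:104638414-104638663 (plus strand) and Slc3a2 chr19:8713898-8714147 (minus strand).
Cubn: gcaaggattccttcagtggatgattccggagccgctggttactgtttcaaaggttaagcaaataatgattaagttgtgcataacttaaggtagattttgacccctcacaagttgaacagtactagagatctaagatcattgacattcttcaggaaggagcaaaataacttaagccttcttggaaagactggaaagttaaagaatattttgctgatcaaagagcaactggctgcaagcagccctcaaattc
Slc2a2: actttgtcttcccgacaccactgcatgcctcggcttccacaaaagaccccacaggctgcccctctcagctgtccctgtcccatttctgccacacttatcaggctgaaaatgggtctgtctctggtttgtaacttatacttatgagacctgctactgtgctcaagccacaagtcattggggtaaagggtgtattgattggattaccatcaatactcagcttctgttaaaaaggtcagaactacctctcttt
Slc6a20a: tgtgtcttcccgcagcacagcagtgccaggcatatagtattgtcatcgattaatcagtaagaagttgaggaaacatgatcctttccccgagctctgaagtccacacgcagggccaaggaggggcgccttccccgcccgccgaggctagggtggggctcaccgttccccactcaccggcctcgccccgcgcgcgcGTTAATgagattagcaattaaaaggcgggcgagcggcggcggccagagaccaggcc
Slc36a1: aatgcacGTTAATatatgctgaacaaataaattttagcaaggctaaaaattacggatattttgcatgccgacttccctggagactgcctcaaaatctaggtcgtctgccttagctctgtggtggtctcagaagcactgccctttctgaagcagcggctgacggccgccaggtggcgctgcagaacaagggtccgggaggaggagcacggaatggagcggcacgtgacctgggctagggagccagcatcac
Slc16a1: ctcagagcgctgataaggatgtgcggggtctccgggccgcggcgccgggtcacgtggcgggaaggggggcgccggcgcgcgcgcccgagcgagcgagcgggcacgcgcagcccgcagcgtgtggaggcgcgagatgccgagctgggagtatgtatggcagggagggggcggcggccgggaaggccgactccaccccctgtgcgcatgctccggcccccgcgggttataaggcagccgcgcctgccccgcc
Slc3a2: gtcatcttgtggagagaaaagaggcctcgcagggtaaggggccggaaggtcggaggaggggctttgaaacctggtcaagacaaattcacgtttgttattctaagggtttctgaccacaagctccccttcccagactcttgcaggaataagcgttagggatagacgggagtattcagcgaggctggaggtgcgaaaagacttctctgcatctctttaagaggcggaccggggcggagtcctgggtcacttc

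A match to GTTAAT or its reverse complement, the half-site of the enterocyte factor HNF1, was present in Slc6a20a of the first set and in Slc36a1 of the second. The windows of Cubn and Slc2a2 each held 2 CpG dinucleotides, that of Slc6a20a 21, and those of Slc36a1, Slc16a1 and Slc3a2 12, 37 and 11, with a median of 10 over the 33 members with a RefSeq promoter and 6 over all 27025 genes. Of these 33 members, 3 held the HNF1 half-site (9.09%, against 6.52% of all promoters) and 2, Slc7a7 and Slc3a1, held the HNF4 core CAAAGTC (6.06% against 3.8%). The CDX site TTTATG was in 1 (3.03% against 11.1%), the GATA site AGATAA in 3 (9.09% against 10.3%) and the TATA box TATAAA in 3 (9.09% of members, against 3504 of the 27025 promoters). Both strands were searched, the motifs TTTATG and TATAAA can overlap on opposite strands, and a gene with several promoters was read from its first entry in the table.

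Among carriers of sugars, Slc5a1 (SGLT1, chromosome 5, 33104219 to 33162870, plus strand, GRCm38) is the sodium-coupled glucose and galactose carrier of the brush border. KO4, KO5, KO7 and KO8 had 8903, 16720, 21843 and 17405 normalized counts, against 20475, 25287, 17320 and 15059 in WT3, WT5, WT7 and WT8. Only KO4 lay outside the WT values, and the log2 fold change was -0.31 (SE 0.28, limma adjusted p = 0.849). Slc2a2 (GLUT2), through which glucose and fructose leave the cell, had 33.2, 244, 1296 and 883 in KO4, KO5, KO7 and KO8, against 606, 1558, 417 and 348 in WT3, WT5, WT7 and WT8. Its level in KO4 was 4.53% of the WT mean, but the WT libraries themselves spanned 4.48-fold, and the log2 fold change was -0.96 (SE 1.06, limma adjusted p = 0.875). Slc2a5 (GLUT5), the apical fructose carrier, had 211, 378, 1082 and 748 in Gsdme_KO, and 717, 985, 342 and 313 in WT. Here KO4 lay below the WT libraries, KO5 among them and KO7 above them, with a log2 fold change of -0.06 (SE 0.55).

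Several less abundant sugar carriers also varied widely. Slc5a11 (SMIT2), a sodium-coupled carrier of myo-inositol, had 5.53, 27.0, 636 and 387 in Gsdme_KO, against 477, 379, 330 and 126 in WT, so that KO4 and KO5 were at 1.69% and 8.25% of the WT mean. Slc5a4a and Slc5a4b, neighbours on chromosome 10 that encode SGLT3 proteins and have been described as glucose sensors, had 6.45 and 10.1 in KO4 and 15.8 and 35.3 in KO5. In KO7 and KO8 together they ran from 58.4 to 151 (Slc5a4a) and from 306 to 497 (Slc5a4b), and in WT from 42.2 to 119 (Slc5a4a) and from 106 to 404 (Slc5a4b). These genes are close relatives, as are Slc6a20a and Slc6a20b, and since the sources used here do not say how reads shared within a pair were counted, their separate values are uncertain. In contrast, Slc5a9 (SGLT4), a carrier of mannose and related sugars, had 821, 764, 844 and 841 in Gsdme_KO and 747, 1086, 777 and 699 in WT, with WT5 the highest library. Its log2 fold change was 0.0041 (SE 0.14), and 0.14 without WT5. Over the 7 sugar and inositol genes, 6 log2 fold changes were negative and 1 positive, with a median of -0.96. The median was -0.05 without KO4, -1.64 without KO7 and 0.68 without KO4 and KO5, and it was -0.26 by edgeR and -0.27 by DESeq2.

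**Figure D3:**
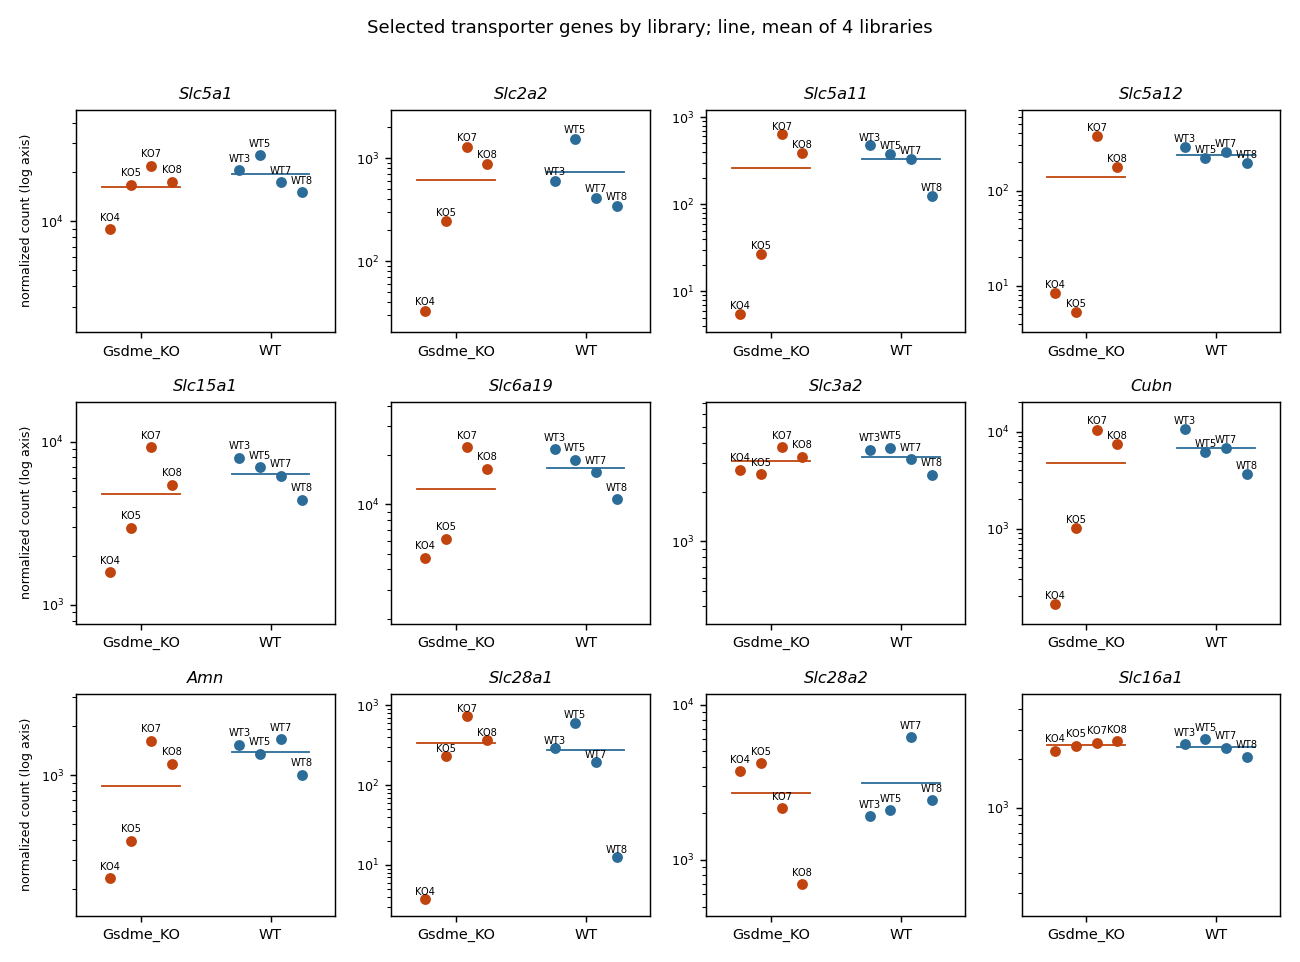
Normalized counts (log axis) of 12 transporter genes in each Gsdme_KO library (left in each panel) and each WT library (right), with a line at the mean of 4 libraries. In Cubn, KO4 (167) and KO5 (1002) lie below the other 6 libraries (3633 to 10658), whereas Slc16a1 stays between 2056 and 2624 in all 8.

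Carriers of small organic acids and of sulfate split into steady and variable genes. Slc13a1 (NaS1), the sodium-coupled sulfate carrier, had 1460, 3062, 13492 and 8047 normalized counts in KO4, KO5, KO7 and KO8, against 13915, 8029, 11602 and 8943 in WT3, WT5, WT7 and WT8 (log2 fold change -1.14, SE 0.61). Slc13a2 (NaDC1), which carries citrate and succinate, had 826 and 1142 in KO4 and KO5, 5804 in KO7 and 3663 in KO8, against 5679, 4574, 4372 and 4093 in WT (log2 fold change -1.13, SE 0.56). Both genes were low in KO4 and KO5 and near the WT libraries in KO7 and KO8. The sharpest contrast was in Slc5a12 (SMCT2), a sodium-coupled lactate carrier, with 8.30, 5.26, 372 and 176 in Gsdme_KO, against 288, 219, 256 and 193 in WT. Those 2 low values stood for 9 and 7 reads, and a fitted log2 difference of -2.42 (SE 1.24, limma adjusted p = 0.849) turned to 0.12 without KO4 and KO5. Slc5a8 (SMCT1), which takes up short-chain fatty acids such as butyrate, parted KO4 from KO5 with 6046, 2587, 4628 and 3716 in Gsdme_KO, against 4782, 4274, 4241 and 3553 in WT. KO4 was the highest library of the 8 and KO5 the lowest. Slc16a1 (MCT1), the proton-coupled lactate and butyrate carrier, had 2242, 2386, 2504 and 2547 in Gsdme_KO and 2450, 2624, 2322 and 2056 in WT, a log2 fold change of 0.04 (SE 0.09). The median over the 5 genes was -1.13, -0.58 without KO4, -1.62 without KO7 and 0.01 without KO4 and KO5, and it was -0.70 by both edgeR and DESeq2.

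Apical uptake of peptides and amino acids was represented by 9 genes, of which 8 had a negative log2 fold change. Slc15a1 (PEPT1), the proton-coupled carrier of di- and tripeptides, had 1585, 2960, 9208 and 5430 normalized counts in Gsdme_KO, against 7933, 6939, 6194 and 4399 in WT. Slc6a19 (B0AT1, chromosome 13, 73679745 to 73704865, minus strand, GRCm38), the main carrier of neutral amino acids, had 4695, 6148, 22334 and 16510 in Gsdme_KO, against 21767, 18827, 15748 and 10758 in WT. In both genes KO4 and KO5 held the lowest 2 values and KO7 the highest, with log2 fold changes of -0.67 (SE 0.48) and -0.68 (SE 0.49). Slc6a20a, an imino acid carrier that handles proline, had 165 and 471 in KO4 and KO5, 3800 and 2571 in KO7 and KO8, and 3793, 2351, 2342 and 1535 in WT. Slc6a20b, a relative of low level, had 0 and 3.75 in KO4 and KO5, or 0 and 5 reads, against 56.0 and 33.8 in KO7 and KO8 and 20.7 to 60.1 in WT.

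The heteromeric carrier of cystine and basic amino acids, whose loss causes cystinuria in people, was nearer to even. Its heavy subunit Slc3a1 (rBAT) had 5271, 4777, 9783 and 7836 in Gsdme_KO, against 10223, 10243, 9538 and 8430 in WT. Its light subunit Slc7a9 had 3527, 4042, 7170 and 5801 in Gsdme_KO, against 7249, 7201, 6332 and 5334 in WT. KO4 and KO5 were the lowest for both, at 54.9% and 49.7% of the WT mean for Slc3a1, and the log2 fold changes were -0.53 (SE 0.22) and -0.39 (SE 0.22), each with a limma adjusted p of 0.849. Slc3a1 shares 26.5% of its exon bases with Prepl on the opposite strand, and the sources used here do not state the strand setting of the counting. The same limit holds for Slc1a1 (31.9%) and Slc13a2 (26.2%). Slc1a1 (EAAC1), the glutamate carrier, had 612 in KO4 against 1414 to 3252 in WT, but 1708 in KO5, within the WT range, and 3890 and 3089 in KO7 and KO8. A steady pair closed this class. Slc1a5 (ASCT2), a glutamine carrier used by many cell types, had 1561, 1412, 1478 and 1464 in Gsdme_KO and 1284, 1273, 1500 and 1384 in WT. Slc36a1 (PAT1), a proton-coupled carrier of small amino acids, had 490, 495, 504 and 523 in Gsdme_KO, against 601, 589, 613 and 513 in WT, where WT8 overlapped the Gsdme_KO libraries. Its log2 fold change was -0.20 (SE 0.08) with all libraries and -0.17 (SE 0.11) without KO4 and KO5, so that its size did not rest on those libraries (limma adjusted p = 0.849 with all libraries and 0.999 without them). The median of the class was -0.53, -0.23 without KO4, -0.73 without KO7 and 0.18 without KO4 and KO5.

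Carriers that release amino acids across the basolateral membrane gave 5 negative log2 fold changes of 5, with a median of -0.33, -0.03 without KO4, -0.66 without KO7 and 0.21 without KO4 and KO5, and -0.21 by both edgeR and DESeq2. Slc43a2 (LAT4), a uniporter of branched-chain amino acids, had 2231, 3325, 9415 and 6986 normalized counts in Gsdme_KO, against 7563, 7450, 5109 and 4235 in WT. Slc16a10 (TAT1), which carries aromatic amino acids, had 156 and 249 in KO4 and KO5, 1991 and 1359 in KO7 and KO8, and 944 to 2081 in WT. Both showed the order of the apical carriers, KO4 and KO5 lowest. Slc7a7 (y+LAT1), the light subunit that exports basic amino acids, had 2879, 2920, 4627 and 4083 in Gsdme_KO, against 4956, 4660, 4168 and 3261 in WT (log2 fold change -0.25, SE 0.19). The other light subunit, Slc7a8 (LAT2), had 295, 452, 1213 and 790 in Gsdme_KO, against 1022, 981, 648 and 541 in WT. Their shared heavy subunit Slc3a2 (4F2hc), which most cell types express, had 2747, 2576, 3761 and 3308 in Gsdme_KO, against 3638, 3745, 3175 and 2554 in WT. For Slc3a2, KO4 and KO5 stayed within the WT values.

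Of the vitamin genes, Cubn (cubilin, chromosome 2, 13276338 to 13491813, minus strand, GRCm38), the large receptor that binds the complex of vitamin B12 and intrinsic factor, varied most among the abundant members. It had 167, 1002, 10480 and 7408 normalized counts in KO4, KO5, KO7 and KO8, against 10658, 6162, 6696 and 3633 in WT3, WT5, WT7 and WT8. KO4 was at 2.46% of the WT mean and KO5 at 14.8%, while KO7 and KO8 lay within the WT range, and the log2 fold change was -1.73 (SE 1.18, limma adjusted p = 0.849). Amn (amnionless), the membrane anchor that carries cubilin to the brush border, had 233, 396, 1626 and 1176 in Gsdme_KO, against 1525, 1353, 1653 and 1003 in WT (log2 fold change -1.07, SE 0.56). It was low in the same libraries but less so, with KO4 at 16.9% and KO5 at 28.7% of the WT mean. Slc52a3 (RFVT3), the apical riboflavin carrier, had 1219, 2119, 3989 and 3208 in Gsdme_KO, against 3666, 4543, 3971 and 2463 in WT. Slc46a1 (PCFT), the proton-coupled folate carrier, had 88.5, 225, 318 and 261 in Gsdme_KO, against 163 to 356 in WT, with KO5 inside the WT range. Slc19a3, a thiamine carrier, and Slc23a1, an ascorbate carrier, were scarce, at 2.44 to 21.8 and 0.75 to 24.4 in Gsdme_KO, against 3.31 to 35.7 and 0.83 to 17.9 in WT. At 1 to 30 reads a library, differences in these last genes were not detectable at this depth. The median of the 5 tested vitamin genes was -0.58, -0.25 without KO4, -0.82 without KO7 and 0.02 without KO4 and KO5.

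The carnitine and ergothioneine carriers are neighbours on chromosome 11. Slc22a5 (OCTN2), which takes up carnitine for fatty acid oxidation, had the smallest unadjusted p of the members, with 1033, 1022, 1958 and 1599 normalized counts in Gsdme_KO, against 2209, 2105, 1883 and 1669 in WT. KO7 lay among the WT libraries and KO8 just below WT8, and the log2 fold change was -0.54 (SE 0.22, limma adjusted p = 0.849) with all libraries and -0.14 (SE 0.14, limma adjusted p = 0.999) without KO4 and KO5. Slc22a4 (OCTN1), the ergothioneine carrier, had 74.7, 125, 504 and 371 in Gsdme_KO, against 419, 482, 319 and 205 in WT. Both had their lowest 2 values in KO4 and KO5, and the median of the pair was -0.63, with -0.33 without KO4, -0.94 without KO7 and 0.10 without KO4 and KO5.

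In 0 of the 3 nucleoside carriers did KO4 and KO5 hold the lowest 2 values, against 1 of the 3 phosphate and zinc genes. KO4 alone was the lowest library for Slc28a1 and Slc29a1. Slc28a2 (CNT2), the sodium-coupled purine nucleoside carrier, had 3751, 4208, 2164 and 699 in Gsdme_KO, against 1906, 2086, 6189 and 2419 in WT, so that KO4 and KO5 lay within the WT range and KO8 was the lowest library. The log2 fold change was -0.33 (SE 0.59), -1.17 (SE 0.55, limma adjusted p = 0.999) without KO4 and KO5 0.06 without WT7 and 0.22 without KO8. A pair of purine enzymes of the upper villus, chosen after their values were seen, is given beside it. Ada, adenosine deaminase, had 4943, 6091, 6938 and 2965 in Gsdme_KO, against 6282, 6492, 11950 and 4125 in WT. Nt5e (CD73), which makes adenosine outside the cell, had 305, 1588, 1237 and 581 in Gsdme_KO, against 1110, 986, 2323 and 471 in WT. WT7 was the highest library for all 3 genes, and KO8 the lowest for Slc28a2 and Ada. Slc28a1 (CNT1), the pyrimidine nucleoside carrier, had 3.69, 233, 736 and 367 in Gsdme_KO, against 290, 609, 194 and 12.4 in WT. Its WT libraries spanned 49.0-fold, and the log2 fold change of -0.16 (SE 1.68) was 1.44 without KO4 and -1.31 without WT8. The Slc28a1 values in KO4 and WT8 stood for 4 and 15 reads. Slc29a1 (ENT1), an equilibrative nucleoside carrier present in many cells, had 406, 592, 545 and 515 in Gsdme_KO and 582, 469, 509 and 616 in WT. The median log2 fold change of the 3 genes was -0.16, with 0.023 without KO4, -0.44 without KO5, -0.03 without both, and -0.07 by edgeR and -0.08 by DESeq2.

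WT5 and WT8 marked the ends of the WT range for a set of genes, several of them known to be more abundant in the proximal small intestine, that was named after the values were seen. Slc2a2, Slc28a1 and Slc19a3 had their highest WT value in WT5, as did Lct, the lactase gene, with 403 there against 55.5 to 72.6 in the other WT libraries. WT5 was also the highest WT library for Fabp1, a fatty acid binding protein, with 1580 in WT5 against 223 to 637, and for Gata4, a transcription factor of the proximal small intestine, with 108 against 14.9 to 23.8. In KO4, KO5, KO7 and KO8, Gata4 had 56.2, 118, 59.7 and 25.6, and Lct had 0, 3.75, 195 and 115. These genes did not order the Gsdme_KO libraries alike. Markers of the ileum were also highest in WT5 and lowest in WT8 among the WT libraries, with 72985 and 17519 for Fabp6, 3001 and 201 for Fgf15, the ileal hormone gene, 17817 and 8537 for Slc51a, and 5962 and 3550 for Slc51b. Slc10a2 did not share this order, with its highest WT value in WT3. Nor did Slc46a1, Ada and Treh, the trehalase gene, whose highest WT values were in WT7 (356, 11950 and 3806). Low values in WT8 were not particular to this set. The median log2 level of the tested members relative to the WT mean was -0.44 in WT8, against 0.24, 0.16 and -0.01 in WT3, WT5 and WT7. The mature enterocyte sum was 484899 in WT8 and 702405 to 796464 in the other WT libraries. WT8 therefore set the lower end of the WT range in most members. The part of the position of the tissue along the gut in these values was not tested.

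Mineral carriers varied less. Slc34a2 (NaPi-IIb), the apical sodium-phosphate carrier of the ileum, had 3362, 5540, 11096 and 6950 normalized counts in Gsdme_KO, against 11462, 6302, 13124 and 9473 in WT (log2 fold change -0.66, SE 0.36). Slc39a4 (ZIP4), the zinc importer, had 3729, 5436, 6078 and 5101 in Gsdme_KO, against 6208, 7231, 6448 and 4542 in WT, with KO4 alone below the WT libraries. Slc20a1 (PiT1), a phosphate carrier found in most cells, had 768, 843, 864 and 851 in Gsdme_KO, against 773, 841, 682 and 601 in WT. Its log2 fold change of 0.21 (SE 0.11) was 0.25 (SE 0.14, limma adjusted p = 0.999) without KO4 and KO5. The class median was -0.27, with -0.12 without KO4, -0.40 without WT8 and -0.11 without KO4 and KO5.

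Ratios between genes that work together were compared within each library for 10 pairs, of which 9 are given, with two-sided exact permutation tests adjusted by Benjamini-Hochberg over the 10. None of the 9 passed (adjusted p from 0.286 to 0.657), and the smallest p the design allows, 0.0286, could not pass for a single pair after adjustment. The subunits of the cystine carrier kept a close ratio, with a log2 ratio of Slc7a9 to Slc3a1 of -0.43 ± 0.14 in Gsdme_KO and -0.56 ± 0.08 in WT (SD, n = 4 each). For Slc7a7 to Slc3a2 it was 0.21 ± 0.11 in Gsdme_KO and 0.38 ± 0.06 in WT (SD, n = 4 each), and each of the Gsdme_KO libraries lay below each of the WT libraries (exact permutation p = 0.0286, adjusted p = 0.286). That ratio was 0.068 in KO4 and 0.181 in KO5. In KO7 and KO8 it was 0.299 and 0.304, close to the lowest WT ratio, 0.315 in WT5. The B12 receptor subunits did not keep theirs. The log2 ratio of Cubn to Amn was -0.48 and 1.34 in KO4 and KO5, 2.69 and 2.65 in KO7 and KO8, against 2.80, 2.19, 2.02 and 1.86 in WT. The log2 ratio of the apical Slc5a1 to the basolateral Slc2a2 was 8.03 and 6.09 in KO4 and KO5, 4.07 and 4.30 in KO7 and KO8, against 5.08, 4.02, 5.37 and 5.43 in WT. For Slc2a5 to Slc2a2 it was 2.63 in KO4, 0.63 in KO5 and -0.26 and -0.24 in KO7 and KO8, against -0.66 to 0.24 in WT. Slc15a1 set against Slc9a3 (NHE3), the sodium-proton exchanger that sustains its proton gradient, had 1.36 and 0.92 in KO4 and KO5, 4.35 and 3.79 in KO7 and KO8, and 3.07 to 4.32 in WT. Slc9a3 itself had 618, 1564, 451 and 392 normalized counts in Gsdme_KO, against 397, 826, 433 and 300 in WT. Slc16a1 set against its chaperone Bsg had -2.13 ± 0.22 in Gsdme_KO and -2.29 ± 0.12 in WT (SD, n = 4 each). The light subunit Slc7a8 set against Slc3a2 had -2.35 ± 0.68 in Gsdme_KO and -2.07 ± 0.23 in WT, and Slc5a1 set against Slc15a1 had 1.98 ± 0.62 in Gsdme_KO and 1.62 ± 0.24 in WT (SD, n = 4 each). The mean difference of the Cubn to Amn ratio, Gsdme_KO minus WT, was -0.67, and 0.01 without KO4, and that of Slc5a1 to Slc2a2 was 0.65, and -0.15 without KO4.

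**Figure D4:**
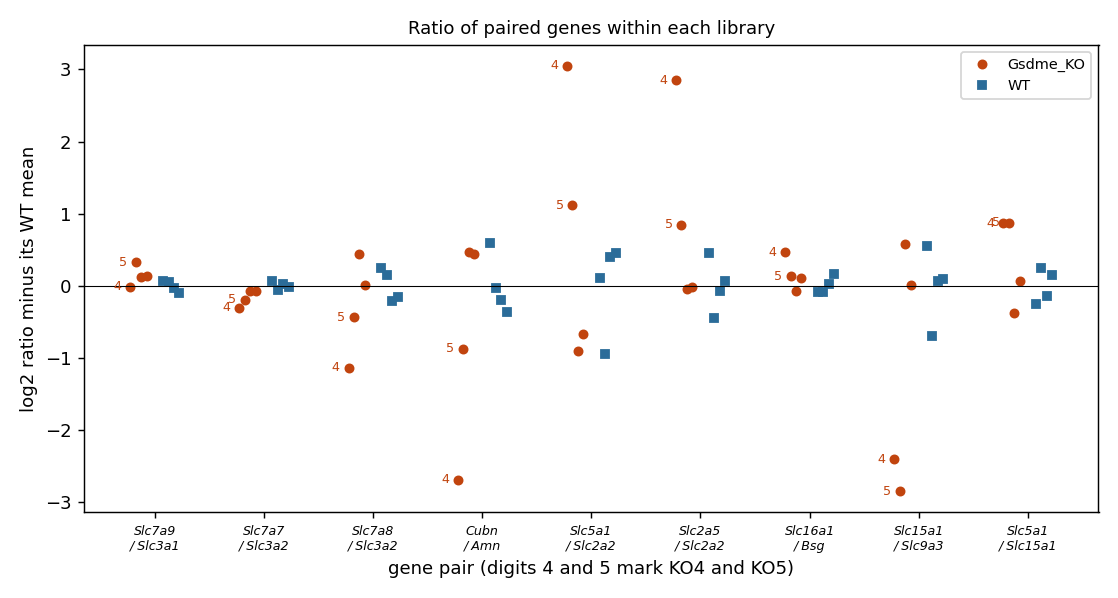
Log2 ratio of the first to the second gene of 9 pairs in each library, minus the WT mean of that ratio, with Gsdme_KO (circles) left of WT (squares) for each pair. KO4 and KO5 are marked by their digits. Both lie outside the range of the other libraries for each pair except Slc7a9 to Slc3a1 and Slc16a1 to Bsg. For Slc7a9 to Slc3a1 all 8 libraries lie between -0.66 and -0.24 before the WT mean is taken off.

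Other genes of nutrient uptake were read from lists. Of 45 other nutrient carriers, 42 were tested. Their log2 fold changes were positive in 15 and negative in 27, with a median of -0.10, and 0.07 without KO4 and KO5. By limma 0 were called and 1 had an unadjusted p under 0.05, against 2.61% of all genes higher and 1.77% lower. KO4 and KO5 were the lowest 2 libraries in 11 of the 45, against 13.5% of all tested genes. The most abundant were Slc6a8, a creatine carrier, with 7686, 9710, 13034 and 11593 in Gsdme_KO and 8606 to 15490 in WT, and Slc26a2, a sulfate carrier, with 6237, 6618, 8131 and 8266 in Gsdme_KO and 6690 to 11639 in WT. The list of partners, scaffolds and the sodium pump had 14 tested genes, 4 positive and 10 negative (median -0.19, and 0.09 without KO4 and KO5). By limma 0 were called and 1, the endocytic receptor Lrp2, had an unadjusted p under 0.05. Lrp2 was scarce, at 11.9 to 45.1 normalized counts, and higher in Gsdme_KO (log2 fold change 1.00, SE 0.36). Among the abundant genes of that list was Atp1b1, a subunit of the sodium pump, with 16416, 25563, 36820 and 30719 in Gsdme_KO and 26104 to 43096 in WT. Among 10 tested genes of vitamin binding and release, 4 were positive and 6 negative (median -0.17, and 0.02 without KO4 and KO5), and 0 were called or passed an unadjusted p of 0.05 by limma. The most abundant were Rfk, riboflavin kinase, with 10019, 14887, 20158 and 15998 in Gsdme_KO and 13096 to 21537 in WT, and Rbp2, a retinol binding protein, with 4495, 12538, 8092 and 6268 in Gsdme_KO and 3409 to 12034 in WT. Of 20 enterocyte transcription factors, 4 were positive and 16 negative with a median log2 fold change of -0.16 (0.02 without KO4 and KO5), and 0 were called or passed an unadjusted p of 0.05 by limma. The most abundant were Hnf4a, with 12084, 12238, 16262 and 14542 in Gsdme_KO and 12941 to 17025 in WT, and Maf, with 2703, 4060, 8841 and 6813 in Gsdme_KO and 5617 to 8138 in WT. KO4 and KO5 held the lowest 2 values in 6 of the 15 genes found of the partner list and 5 of the 11 of the vitamin list. They did so in 9 of the 20 transcription factors, against 13.5% of all tested genes.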

How the data were processed

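Strand-specific libraries were made from poly(A)-selected RNA, per the labels' protocols. HISAT2, SAMtools, Subread with featureCounts, and DESeq2 are listed in the submitters' processing notes, with GRCm38 as the build. Versions, annotation release and strand setting were not given in the sources used. The values the authors deposited are a normalized signal, gene counts divided by 1 size factor per library (0.821 to 1.33). Whole reads were recovered, since 100% of values in each library were whole multiples of 1 step within 0.01 reads. Median-of-ratios factors were recomputed from those reads and matched the divisors.

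Column headers give the genotype, but their numbers run past the labels' 1 to 4, so columns were assigned to a genotype only. That the 4 mice of a genotype are separate animals comes from their titles. No 2 libraries agreed within sampling noise (lowest chi-square per degree of freedom 12.5, KO7 and WT3).

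limma-trend (limma 3.58.1, R 4.3.3) was fitted on log2(normalized count + 1) over the 16352 genes whose mean reached 10, without covariates. Calls were made where the Benjamini-Hochberg adjusted p over all genes was under 0.05. The pseudocount understates fold changes of low genes, while the mean of logs gives weight to low libraries. The edgeR 4.0.16 quasi-likelihood and DESeq2 1.42.0 tests were run on recovered reads, and steps were tested on simulated data. Alternatives were pseudocounts of 0.5 and 5, no filter, a mean of at least 50, TMM factors and each library left out. Positions and exon lengths are from GENCODE M21 (GRCm38), and promoters from RefSeq (GRCm38.p6). Of the 40 members, 10 share exon bases with another gene (2.46% to 31.9% of their own), the most in Slc1a1. Members, lists and pairs were chosen with earlier results of these data known. Values in every library were to be given for called or non-overlapping members, the 2 of highest mean per class and the 10 of smallest unadjusted p. Further members are given in full by later choice. Of each list, called genes or else the 2 of highest mean were to be named, and further list genes are named by later choice. A gene pair and a list gene are not reported here.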

Additional observations from a re-analysis of the deposited data

How the results depend on the processing

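No paired analysis was possible because the column headers do not carry the labels' replicate numbers. No member was called by limma, edgeR or DESeq2, under any pseudocount, filter or TMM setting, or without any library. Leaving out KO4 and KO5 together was chosen after seeing the data, and the cause of the changes was not tested. In that fit 0 members were lower at an unadjusted p under 0.05, and class medians were 0.68 for sugars, 0.0060 for carboxylates and sulfate and 0.10 for carnitine and ergothioneine. Log2 fold changes that changed sign became 0.025 for Slc5a1, 0.81 for Slc2a2, 0.78 for Slc2a5, 0.31 for Slc5a4a, 0.68 for Slc5a4b, 0.75 for Slc5a11, 0.12 for Slc5a12 and 0.0060 for Slc13a1. They became 0.18 for Slc15a1, 0.24 for Slc6a19, 0.39 for Slc6a20a, 0.47 for Slc6a20b, 0.50 for Slc1a1, 0.046 for Slc7a7, 0.35 for Slc7a8, 0.12 for Slc3a2, 0.21 for Slc16a10 and 0.46 for Slc43a2. Further values were 0.48 for Cubn, 0.024 for Amn, 0.086 for Slc46a1, -0.47 for Slc19a3, 0.0018 for Slc52a3, 0.35 for Slc22a4 and 1.83 for Slc28a1. Differences in log2 ratio became 0.22 for Slc7a8 to Slc3a2, 0.46 for Cubn to Amn, -0.79 for Slc5a1 to Slc2a2, -0.036 for Slc2a5 to Slc2a2, 0.30 for Slc15a1 to Slc9a3 and -0.16 for Slc5a1 to Slc15a1. By edgeR and by DESeq2, fold changes turned to 0.042 and 0.039 for Slc2a5, -0.011 and -0.015 for Slc5a9, 0.016 and 0.012 for Slc5a8, and 0.28 and 0.28 for Slc28a1, and edgeR listed 1 member as lower at an unadjusted p under 0.05. With single libraries left out, 0 to 1 members were higher and 0 to 17 lower at that level. Ranges that crossed 0 were -1.64 to 0.10 for Slc2a2, -0.42 to 0.36 for Slc2a5, -0.069 to 0.14 for Slc5a9, -0.24 to 0.17 for Slc5a8, -0.027 to 0.090 for Slc16a1, -0.73 to 0.16 for Slc1a1, -0.20 to 0.0013 for Slc3a2, -0.66 to 0.028 for Slc43a2, -1.31 to 1.44 for Slc28a1, -0.64 to 0.22 for Slc28a2 and -0.16 to 0.023 for Slc29a1. For ratios they were -0.52 to 0.0042 for Slc7a8 to Slc3a2, -1.05 to 0.010 for Cubn to Amn and -0.15 to 1.16 for Slc5a1 to Slc2a2. Low counts limit Slc19a3, Slc23a1, Slc6a20b and, in KO4 and KO5, Slc5a4a, Slc5a4b, Slc5a11 and Slc5a12. They also limit Slc28a1 in KO4 and WT8.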

Other observations

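Slc2a1 (GLUT1), a glucose carrier that is outside the 40 genes, was the only other nutrient carrier with an unadjusted limma p under 0.05. It had 1615, 1313, 694 and 788 normalized counts in KO4, KO5, KO7 and KO8, against 615, 722, 545 and 572 in WT3, WT5, WT7 and WT8. Its log2 fold change was 0.77 (SE 0.26, limma adjusted p = 0.849), and 0.28 (SE 0.13, limma adjusted p = 0.999) without KO4 and KO5. It ran opposite to most of the absorptive carriers, since KO4 and KO5 were its highest libraries. Among the 45 other nutrient carriers, they were also the highest for Slc50a1, Slc7a5, Slc43a3, Slc15a4, Slc16a3, Slc29a3 and Slc34a1, and the lowest for 11.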
